A study of Mus musculus with 12 samples.

Results

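The type 2 vomeronasal receptor genes (Vmn2r) were examined in the olfactory bulb (OB) of Tg2576 and wild-type (WT) mice. A gene was a member if its probeset carried a single platform symbol made of Vmn2r and a number, and a gene with more than 1 probeset was represented by the one with the highest mean over the 12 arrays. This gave 120 Vmn2r genes, from 122 probesets, among 19505 genes with a single symbol. Transcript levels came from 1 Affymetrix Mouse Clariom S array per animal, for 12 female mice with 3 in each of 4 groups, which were Tg2576 mice of 6 months, Tg2576 mice of 2 months, WT littermates of 6 months and WT littermates of 2 months. Tg2576 mice overexpress human amyloid precursor protein with the Swedish familial Alzheimer's disease mutation under the prion promoter, and all mice were on a C57BL/6/SJL background. Values are log2 intensities, so that a difference of 1 is a doubling of the intensity. The labels name separate mice but no shared batch, and the number of arrays limits the precision.

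Type 2 vomeronasal receptors are class C G protein-coupled receptors with a large extracellular domain that binds peptides and small proteins used in social communication between mice. They are made by sensory neurons in the basal layer of the vomeronasal organ, which signal through the G protein subunit Gnao1 and the channel Trpc2. The cell bodies of these neurons lie in the nose and their axons end in the accessory olfactory bulb, the part of the bulb that serves the vomeronasal system. Most members are each expressed by few neurons, whereas the family C genes Vmn2r1 to Vmn2r7 are broadly expressed together with other members. In bulk tissue, fewer cells of a type and less RNA per cell cannot be told apart.

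The Vmn2r genes were dim on the arrays, and none had a mean above the 95th percentile of the negative control probesets. The mean over the 12 arrays had a median of 5.13 across the 120 Vmn2r genes and ran from 3.73 to 8.82 log2 units. The corresponding median was 5.10 for 199 type 1 vomeronasal receptor genes (Vmn1r), 5.68 for 1080 odorant receptor genes (Olfr) and 8.25 for all 22206 gene probesets. Negative control probesets, the 5222 probesets that carry this mark in their names, had a median of 6.98 and a 95th percentile of 10.001. Of the 120 Vmn2r genes, 0 had a mean above that 95th percentile, and 0 exceeded it on any single array, against 17.6% of all gene probesets. The counts were likewise 0 of 199 for Vmn1r and 0 of 1080 for Olfr genes. Only 5 of 120 Vmn2r genes (4.17%) had a mean above the median of the negative controls, against 72.7% of all gene probesets. The negative controls ran from 3.27 to 14.23 and all gene probesets from 3.56 to 13.87, so that range holds every gene probeset. These levels alone do not show whether a Vmn2r gene is expressed. Intensities of different probesets are not on a common scale of transcript number.

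**Figure D1:**
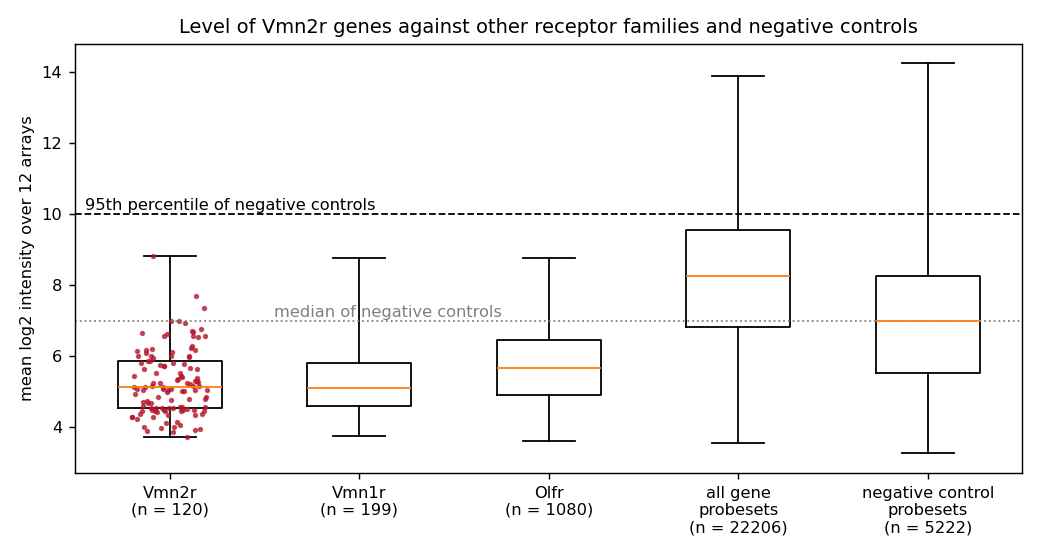
Mean log2 intensity over 12 arrays of the Vmn2r genes (red points, 1 per gene), with boxes (quartiles and median) and whiskers (lowest and highest) for Vmn2r, Vmn1r and Olfr genes, all gene probesets and negative control probesets. All 120 Vmn2r genes lie below the 95th percentile of the negative controls (10.001, dashed line) and 5 lie above their median (6.98, dotted line).

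The position relative to background depends on which control is taken. The array also holds 23 background probesets whose names carry a number for G and C content from 3 to 25, and their mean level climbed with it over most of this range, with 3.46 at the number 3, 4.997 at 14, 5.56 at 15 and 8.99 at 25. The median Vmn2r gene thus lay between the background probesets numbered 14 and 15, and 37 of 120 Vmn2r genes lay above the mean of all 23 (5.67). The G and C content of the Vmn2r probes was not used here. On single arrays the median Vmn2r level was between 5.02 and 5.21 and that of the negative controls between 6.85 and 7.14.

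The tissue itself gave clear signals. All 11 measured markers of OB neurons lay above the median of the negative controls and 8 above their 95th percentile, with levels of 11.4 for the dopamine synthesis enzyme Th, 11.2 for the mitral and tufted cell factor Eomes and 13.1 for the interneuron factor Meis2. The transduction genes that vomeronasal neurons use were also above the median of the negative controls in 10 of 10 measured cases, but most of these are used by many neurons. Gnao1 had a level of 12.4, the Gnai2 subunit of apical vomeronasal neurons 11.4 and the G protein gamma subunit Gng8 7.62, while Trpc2, which defines vomeronasal neurons, was not analysed here. Of the 10 genes listed for the H2-Mv group, major histocompatibility molecules of basal vomeronasal neurons with their partner B2m, only B2m (10.14) and H2-M10.2 (8.05) exceeded the median of the negative controls. The 15 measured exocrine gland peptides and major urinary proteins, which act as ligands of vomeronasal neurons, were all below it, as were 3 of 3 formyl peptide receptors. By contrast, 17 of 19 other class C receptors, such as glutamate and GABA-B receptors, were above it.

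Within the family, the brightest genes were Vmn2r29 (8.82), Vmn2r46 (7.71), Vmn2r2 (7.36), Vmn2r1 (7.001) and Vmn2r34 (6.99), the 5 that exceeded the median of the negative controls. Vmn2r120 (6.93) came just below this limit, followed by Vmn2r37 (6.77) and Vmn2r53 (6.71). The lowest were Vmn2r103 (3.73), Vmn2r28 (3.88) and Vmn2r20 (3.89). In all, 50 genes had a mean under 5, 44 between 5 and 6, 22 between 6 and 7 and 4 of 7 or more. From Vmn2r34 to Vmn2r53 the neighbours in this order differed by less than the median within-group SD of the members (0.17).

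Family C, the broadly expressed group, was split in level. Of its 7 genes 6 were measured with a single symbol. Vmn2r2 and Vmn2r1 were the third and the fourth brightest of all 120. Vmn2r6 (5.73) and Vmn2r5 (5.54) lay above the family median of 5.13, and Vmn2r3 (4.59) and Vmn2r4 (4.46) below it. Receptors with a known ligand were dim. Vmn2r116, the receptor of the male tear peptide ESP1, had a mean of 4.24. Vmn2r115, which responds to the juvenile peptide ESP22, had a mean of 4.54, and Vmn2r26, which responds to peptides that bind histocompatibility molecules, had 4.57. None of these 3 receptors and none of the 6 family C genes was called in any of the 5 comparisons, against 0.527% to 1.74% of all gene probesets. At these shares a count of 0 among so few genes does not show that they held steady.

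By their place in the RefSeq annotation of assembly GRCm38.p6, the 120 genes fell into 19 groups of neighbours on 9 chromosomes, taking genes whose starts lie within 1 Mb of the preceding member as neighbours. Of these, 11 groups held 3 or more genes and 8 were single genes. The largest held 24 genes on chromosome 7 (Vmn2r29 to Vmn2r52) and 21 on chromosome 17 (Vmn2r90 to Vmn2r110). Across the 12 arrays, the median Pearson correlation was 0.16 over the 754 pairs of genes in the same group and 0.07 over the 6386 pairs in different groups. These correlations share arrays, normalization and low intensities, and are given as a description. The 4 neighbours Vmn2r84 to Vmn2r87 on chromosome 10 had the highest median of any group of 3 or more genes, with 0.67 over 6 pairs. The correlations were 0.79 for Vmn2r84 with Vmn2r85, 0.78 for Vmn2r85 with Vmn2r86 and 0.78 for Vmn2r84 with Vmn2r86, and from 0.29 to 0.55 for the pairs with Vmn2r87. These values include the differences between group means. With the group means removed the median was 0.47, still the highest. The same 3 pairs then had 0.77, 0.65 and 0.60, and the pairs with Vmn2r87 ran from -0.28 to 0.34. A single array, WT 6 months replicate 2, weighs on these 3 pairs. It had 6.44, 6.39 and 6.25 for Vmn2r84, Vmn2r85 and Vmn2r86, against group means of 5.99, 5.91 and 5.81. It also had the highest hybridization controls (12.5), and the correlations were not computed without it.

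Of these 4 genes, Vmn2r85 and Vmn2r86 carried the only calls of the family in Tg2576 mice of 6 months relative to those of 2 months. The sequences upstream of the starts of all 4 are therefore shown. Between the 4 genes the annotation lists only the pseudogenes Ctdsp2-ps, Gm18754 and Gm18755. RefSeq promoter windows matched 113 of the 120 genes, with 114 windows. The RefSeq models of these 4 genes begin at the start codon, as did 99 of the 114 windows, so each stretch is the 250 bases before the coding sequence and the place where transcription begins is not given. All 4 lie on the minus strand of GRCm38.p6, at chr10:130394242-130394491 for Vmn2r84, chr10:130429613-130429862 for Vmn2r85, chr10:130455895-130456144 for Vmn2r86 and chr10:130497380-130497629 for Vmn2r87. Capitals mark TAATTA, a palindromic motif of homeodomain factors, chosen after the 4 sequences had been seen.
Vmn2r84: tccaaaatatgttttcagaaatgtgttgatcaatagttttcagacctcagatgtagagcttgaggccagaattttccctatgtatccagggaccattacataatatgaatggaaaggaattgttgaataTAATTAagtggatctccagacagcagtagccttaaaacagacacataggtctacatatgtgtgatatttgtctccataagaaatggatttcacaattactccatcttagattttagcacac
Vmn2r85: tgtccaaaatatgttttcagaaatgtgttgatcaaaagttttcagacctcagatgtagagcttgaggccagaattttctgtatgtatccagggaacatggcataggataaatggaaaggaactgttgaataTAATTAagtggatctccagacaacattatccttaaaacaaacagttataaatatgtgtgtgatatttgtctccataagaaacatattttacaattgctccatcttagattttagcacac
Vmn2r86: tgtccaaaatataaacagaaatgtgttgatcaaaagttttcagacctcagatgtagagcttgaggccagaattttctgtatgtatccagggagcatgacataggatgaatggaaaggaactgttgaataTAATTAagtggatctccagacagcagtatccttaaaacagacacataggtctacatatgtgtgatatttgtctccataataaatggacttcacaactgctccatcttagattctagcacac
Vmn2r87: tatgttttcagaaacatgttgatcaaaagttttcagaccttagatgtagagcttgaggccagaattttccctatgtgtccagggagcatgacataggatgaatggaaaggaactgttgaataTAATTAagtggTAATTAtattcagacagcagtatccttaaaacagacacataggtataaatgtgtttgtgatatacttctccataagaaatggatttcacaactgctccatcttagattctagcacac
The stretches were alike, with an identity between 83.01% and 91.67% over the 6 pairs in a global alignment. TAATTA occurred in all 4, in 19 of the 114 Vmn2r windows (16.7%) and in 4.84% of 32841 RefSeq windows of the same length, and none of the 4 contained a CG. The Vmn2r windows had a median of 38.6% G and C, against 52.4% for all windows, and windows of paralogs are alike. The shares of TAATTA allow for neither, nor for the place of most Vmn2r windows before a start codon. Upstream stretches as alike as these 4 were also found elsewhere in the family. The 21 pairs within Vmn2r111 to Vmn2r117 on chromosome 17 had a median identity of 96.4% and a median correlation across arrays of 0.05. Over all pairs of neighbours, the median correlation was 0.13 for 293 pairs with an identity of 80% or more and 0.16 for 376 pairs below it.

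The question whether the family changed between 2 and 6 months of age in Tg2576 mice was addressed with limma, with all 12 arrays in a single model. A call required both an unadjusted p under 0.01 and a fold over 1.3 or under 0.7. In this comparison 2 of 120 Vmn2r genes were called, against 0.527% of all gene probesets, and both were higher at 6 months, against 0.36%. They were the neighbours Vmn2r86 and Vmn2r85, for which no ligand is stated in the sources used here. Vmn2r86 had 6.50, 6.08 and 6.67 in Tg2576 mice of 6 months, against 5.49, 5.63 and 5.34 in Tg2576 mice of 2 months. The lowest older mouse thus stood above the highest younger one. The log2 fold change was 0.93 (standard error 0.19, limma adjusted p = 0.651). Vmn2r85 had 6.03, 6.01 and 6.06 in Tg2576 mice of 6 months, against 5.33, 5.31 and 5.005 in Tg2576 mice of 2 months. The older mice were nearly equal and all above the younger ones, and the log2 difference was 0.82 (standard error 0.18, limma adjusted p = 0.703). Both calls were kept in each of the 12 fits without 1 array. Neither passed the Benjamini-Hochberg adjustment over all gene probesets.

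The other pair of neighbours had values in the same direction without being called. Vmn2r84 had 6.45, 6.25 and 6.41 in Tg2576 mice of 6 months, against 5.66, 6.14 and 5.77 in Tg2576 mice of 2 months. Its groups did not overlap, and its log2 fold change was 0.52 (standard error 0.18, limma adjusted p = 0.848). Vmn2r87 had 6.28, 6.33 and 6.25 in Tg2576 mice of 6 months, against 5.87, 6.13 and 5.76 in Tg2576 mice of 2 months. The log2 fold change was 0.37 (standard error 0.15, limma adjusted p = 0.848), again without overlap. In this comparison, 6 of 120 Vmn2r genes were higher without overlap, against 7.24% of all gene probesets, and the 4 neighbours were among these 6, with Vmn2r1 and Vmn2r100. Groups that did not overlap and were lower numbered 11 of 120, against 6.96% of all gene probesets. The 4 other genes of chromosome 10 (Vmn2r80 to Vmn2r83) had a median log2 fold change of -0.12, with 0 of 4 above 0.

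**Figure D2:**
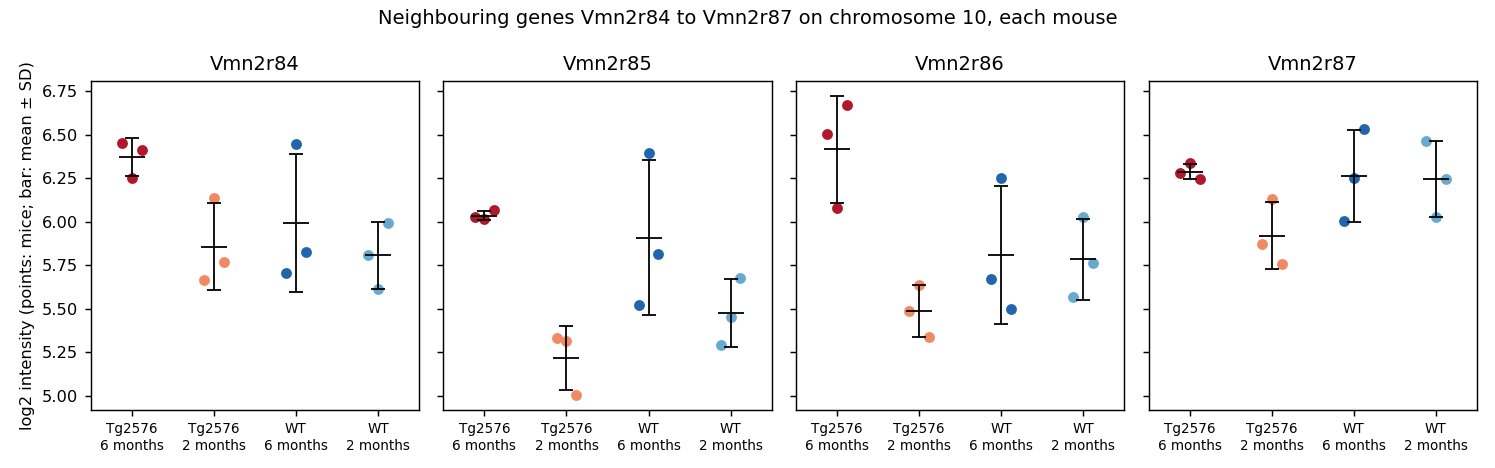
Log2 intensity of Vmn2r84, Vmn2r85, Vmn2r86 and Vmn2r87 in each mouse (points) with mean and SD (bars, n = 3) by group. All 3 Tg2576 mice of 6 months lie above all 3 Tg2576 mice of 2 months for each of the 4 genes. For each gene at least 1 WT mouse of 6 months lies above the lowest Tg2576 mouse of 6 months. For Vmn2r85 (WT replicate 2, 6.39) and Vmn2r87 (WT replicate 3, 6.53) it lies above all 3.

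Among WT mice the same 4 genes were not called for age. Vmn2r86 averaged 5.81 ± 0.39 in WT mice of 6 months and 5.78 ± 0.23 in WT mice of 2 months (SD, n = 3 each), a log2 difference of 0.02 (standard error 0.19). Vmn2r85 averaged 5.91 ± 0.44 in WT mice of 6 months and 5.47 ± 0.19 in WT mice of 2 months (SD, n = 3 each), with a fold change of 0.44 on the log2 scale (standard error 0.18, limma adjusted p = 0.379). The large SD of the older WT mice came from replicate 2, which had 6.44, 6.39 and 6.25 for Vmn2r84, Vmn2r85 and Vmn2r86, whereas replicates 1 and 3 had between 5.50 and 5.83. This array also had the highest hybridization controls, with a mean of 12.5, followed by replicate 3 of the same group with 12.1, against 11.3 to 11.7 on the other 10 arrays. With the hybridization controls as a covariate the log2 fold change of Vmn2r85 between the ages in WT mice was -0.0087, while in Tg2576 mice that of Vmn2r85 was 0.83 and that of Vmn2r86 0.94. The mean level of 10 olfactory sensory neuron genes, whose axons form the outer layer of the bulb, was between 8.76 and 8.96 in Tg2576 mice of 6 months, against 8.58 to 9.58 in Tg2576 mice of 2 months, and overlapped between them. Its part in the result was not tested.

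The other members named by their size in this comparison were not called. Vmn2r1, a family C gene, had 7.59, 7.23 and 6.88 in Tg2576 mice of 6 months, against 6.75, 6.70 and 6.46 in Tg2576 mice of 2 months. The log2 difference was 0.59 (standard error 0.21, limma adjusted p = 0.848), with no overlap. The lowest fold change was that of Vmn2r78, with -0.39 (standard error 0.12, limma adjusted p = 0.848). Its fold of 0.764 did not pass the limit of 0.7. It was followed by Vmn2r101 (-0.33) and Vmn2r24 (-0.29), whose groups overlapped. At an unadjusted p under 0.01 without a fold limit the count was 3 of 120, against 1.14% of all gene probesets. The median over the family was -0.03, and 69 of 120 genes (57.5%) lay below 0, against 51% of all gene probesets. The share was higher in sets of like intensity, with 60.3% for Vmn1r genes, 63.6% for Olfr genes and 62.7% for gene probesets below the median of the negative controls. The sign of the family median depended on the scale, since it was 0.0050 with cyclic loess, and it ran from -0.059 to -0.015 over the fits without 1 array.

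Between genotypes, the comparison at 6 months asked which members differed at the older age. A single Vmn2r gene was called, against 1.04% of all gene probesets, or 0.644% in the higher direction. Vmn2r86 was again this gene, with 6.50, 6.08 and 6.67 in Tg2576 mice of 6 months, against 5.67, 6.25 and 5.50 in WT mice of 6 months. The ranges overlapped, because WT replicate 2 lay above the lowest Tg2576 mouse. The log2 fold change was 0.61 (standard error 0.19, limma adjusted p = 0.475). It was 0.83 without that WT mouse and 0.45, no longer called, without WT replicate 3, and the call was lost in 5 of the 12 fits without 1 array, those without Tg2576 6 months replicates 1 or 3, WT 6 months replicates 1 or 3, or WT 2 months replicate 3. The log2 difference of Vmn2r84 was 0.38 (standard error 0.18, limma adjusted p = 0.585), and Vmn2r85 and Vmn2r87 had 0.13 and 0.03. The mean level of the 10 olfactory sensory neuron genes was between 8.76 and 8.96 in Tg2576 mice of 6 months, against 8.42 to 8.66 in WT mice of 6 months, without overlap, although 0 of these 10 genes were called. The 10 vomeronasal transduction genes had mean levels from 10.07 to 10.17 in Tg2576 mice and from 9.91 to 10.06 in WT mice of this age, also without overlap and with 0 called. These lists share Omp and Ano2. Their part in the result was not tested.

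On the lower side, Vmn2r76 of chromosome 7 had the smallest p of the family at 6 months. It had 4.20, 4.31 and 4.26 in Tg2576 mice of 6 months, against 4.66, 4.83 and 4.75 in WT mice of 6 months, without overlap. The log2 fold change was -0.49 (standard error 0.12, limma adjusted p = 0.408). It was not called, because its fold of 0.713 just missed the limit of 0.7. It was followed by Vmn2r29 (-0.45, standard error 0.48) and Vmn2r60 (-0.41, standard error 0.14, limma adjusted p = 0.499). On the higher side Vmn2r86 was followed by Vmn2r25 (0.46, standard error 0.17, limma adjusted p = 0.515) and Vmn2r84. Without the fold limit 3 of 120 genes had a p under 0.01, against 2.03% of all gene probesets, and the third of these was Vmn2r30 (-0.37, standard error 0.12). Genes that did not overlap between genotypes were 4 of 120 in the higher direction, against 7.56% of all gene probesets, and 11 of 120 in the lower direction, against 7.29%.

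The family as a whole lay slightly below 0 at 6 months. The median log2 fold change was -0.07, with 79 of 120 genes (65.8%) below 0, against 48.2% of all gene probesets and a median of 0.01 over these. The share was 65.3% for Vmn1r genes, 53% for Olfr genes and 53.4% for gene probesets below the median of the negative controls. The largest groups of neighbours showed it, with 5 of 24 genes above 0 and a median of -0.11 in Vmn2r29 to Vmn2r52, 5 of 21 and -0.13 in Vmn2r90 to Vmn2r110, and 3 of 15 and -0.15 in Vmn2r65 to Vmn2r79. The shift is smaller than the median standard error of a single member (0.13). The median was -0.0035 without WT 6 months replicate 2, -0.117 without WT 6 months replicate 3 and -0.064 without both, and it was between -0.099 and -0.050 without any 1 of the other 4 mice of 6 months. With the hybridization controls as a covariate the median was 0.001.

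**Figure D3:**
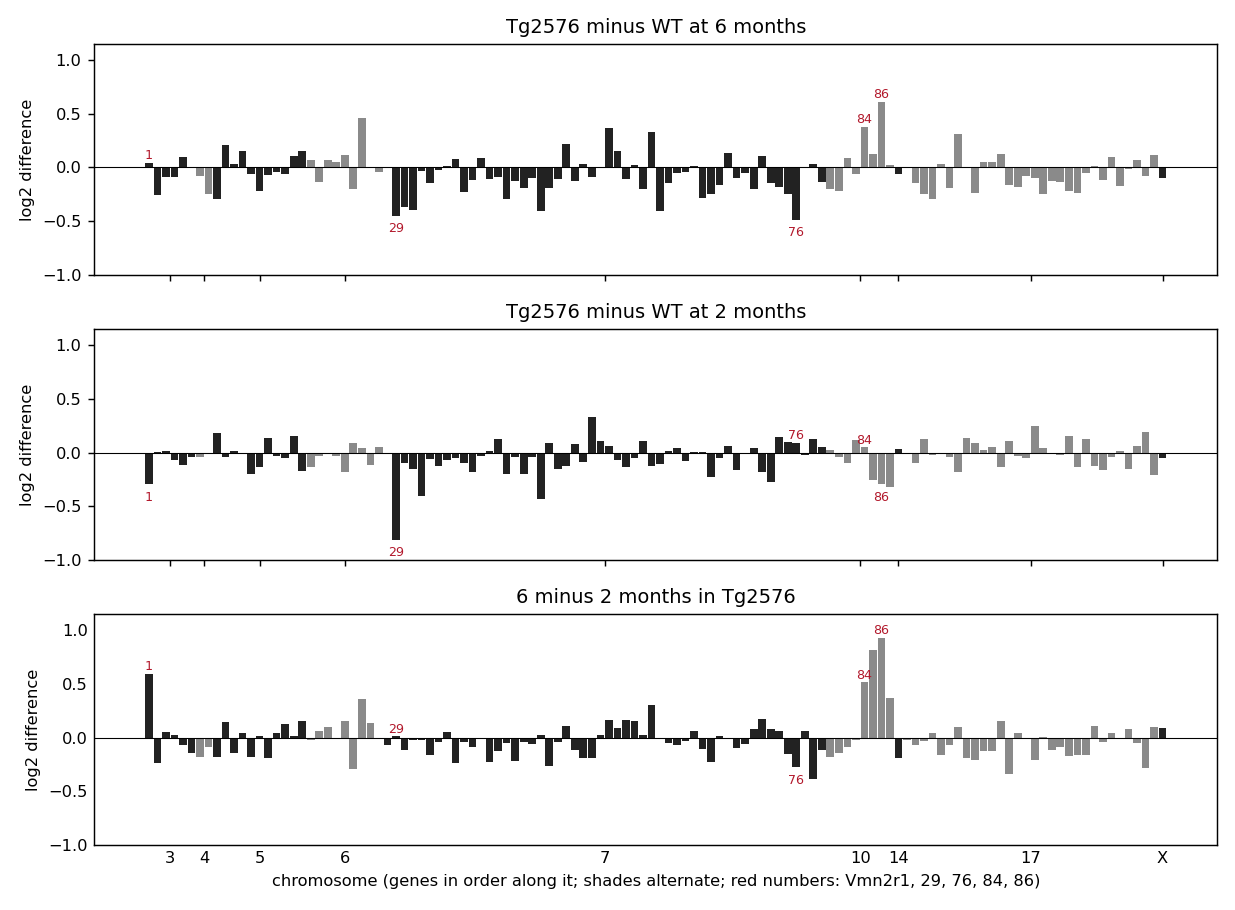
Log2 difference of each of the 120 Vmn2r genes in order along the chromosomes, for Tg2576 minus WT mice at 6 months, Tg2576 minus WT mice at 2 months, and 6 minus 2 months in Tg2576 mice. The 4 neighbours Vmn2r84 to Vmn2r87 on chromosome 10 stand above most others in the lowest panel, with values between 0.37 and 0.93, and Vmn2r29 is the lowest bar at 2 months.

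At 2 months, 0 of 120 Vmn2r genes were called between genotypes, against 0.572% of all gene probesets. At an unadjusted p under 0.05 without a fold limit limma gave 3 of 120, against 6.32% of all gene probesets. Vmn2r32 was the only member with a p under 0.01, lower in Tg2576 mice, against 1.22% of all gene probesets and 0.581% in that direction. It had 4.74, 4.66 and 4.59 in Tg2576 mice of 2 months, against 5.15, 5.06 and 4.98 in WT mice of 2 months. These groups did not overlap, and the log2 fold change was -0.40 (standard error 0.12, limma adjusted p = 0.762), with a fold of 0.758. The lowest values were those of Vmn2r29 (-0.81, standard error 0.48) and Vmn2r46 (-0.43, standard error 0.21), whose groups overlapped. The highest were those of Vmn2r52 (0.33, standard error 0.14, limma adjusted p = 0.777), Vmn2r104 (0.25) and Vmn2r118 (0.19). The neighbours of Vmn2r84 had values of -0.26 for Vmn2r85, -0.30 for Vmn2r86 and -0.32 for Vmn2r87, and Vmn2r84 itself had 0.05.

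The median over the family at 2 months was -0.03, with 75 of 120 genes (62.5%) below 0, against 48.2% of all gene probesets. The share was 49.2% for Vmn1r genes, 40.9% for Olfr genes and 47.7% for gene probesets below the median of the negative controls. The sign of the family median depends on the scale. The median of the negative controls was 6.93 in Tg2576 mice and 7.05 in WT mice of 2 months, a difference of -0.12, and when each array was centred on them the median of the Vmn2r genes was 0.09 and that of all gene probesets 0.13. Centring moves every probeset of an array by the same amount. The order of these medians was therefore fixed, and the second scale adds no support for it. Without overlap between genotypes, 5 of 120 genes were higher and 7 of 120 lower, against 5.23% and 4.73% of all gene probesets.

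The genotype difference itself was compared between the ages. Of the 120 genes, 46 lay below 0 at both ages, 12 above 0 at both, 33 below 0 at 6 months and above 0 at 2 months, and 29 the other way. In all, 79 genes lay below 0 at 6 months and 75 at 2 months. The counts with the same sign at both ages were no larger than these shares alone give. Only Vmn2r38 and Vmn2r40, both of the large group on chromosome 7, had genotype groups that did not overlap in the same direction at both ages, against 1.2% of all gene probesets. Vmn2r40 had log2 fold changes of -0.30 at 6 months and -0.20 at 2 months, and Vmn2r38 of -0.19 and -0.20. In that chromosome 7 group, 19 of 24 genes lay below 0 at each age, against 48.2% of all gene probesets at each age. Genes of a group are measured on the same arrays and are not replicates. The genotype comparisons at the 2 ages share no mice.

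Tested directly, the genotype difference changed with age in 2 of 120 genes at an unadjusted p under 0.01, against 0.779% of all gene probesets. For Vmn2r86 the difference at 6 months exceeded that at 2 months by 0.91 (standard error 0.27, limma adjusted p = 0.842). For Vmn2r76 the difference at 6 months minus that at 2 months was -0.58 (standard error 0.17, limma adjusted p = 0.842). In Vmn2r76 the means were 4.26 ± 0.05 in Tg2576 mice of 6 months and 4.75 ± 0.09 in WT mice of 6 months, and 4.53 ± 0.09 in Tg2576 mice of 2 months and 4.44 ± 0.25 in WT mice of 2 months (SD, n = 3 each). The younger WT mice of this gene spread widely, with 4.22, 4.72 and 4.39. The call of Vmn2r86 was lost in 6 of the 12 fits without 1 array, with values from 0.75 to 0.86 in these, when Tg2576 2 months replicate 3, Tg2576 6 months replicates 1 or 3, WT 2 months replicate 2 or WT 6 months replicates 1 or 3 was left out. That of Vmn2r76 was lost in 3, without Tg2576 2 months replicate 1 (-0.55), Tg2576 6 months replicate 1 (-0.55) or WT 2 months replicate 1 (-0.47). The next values were those of Vmn2r95 (0.50) and Vmn2r59 (0.45) on the higher side, and of Vmn2r8 (-0.48) and Vmn2r52 (-0.42) on the lower side.

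**Figure D4:**
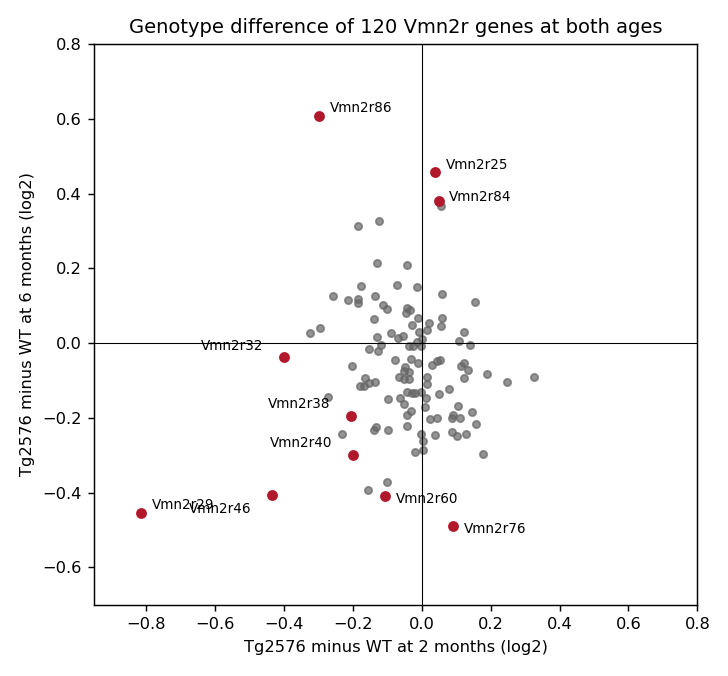
Log2 difference between Tg2576 and WT mice at 6 months (vertical axis) against that at 2 months (horizontal axis) for the 120 Vmn2r genes, with named genes in red. Vmn2r86 (0.61 at 6 months, -0.30 at 2 months) has the highest value at 6 months and Vmn2r76 (-0.49 and 0.09) the lowest. Vmn2r29 is lower at both ages with a wide error.

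In WT mice, 0 of 120 Vmn2r genes were called between 6 and 2 months, against 1.74% of all gene probesets, the highest share of the 4 comparisons of a pair of groups. Without the fold limit 5 of 120 had an unadjusted p under 0.01 in limma, against 3.42% of all gene probesets. They were Vmn2r58 (0.34), Vmn2r91 (0.34) and Vmn2r106 (0.29) on the higher side, where 2.09% of all gene probesets lay, and Vmn2r95 (-0.40) and Vmn2r32 (-0.38) on the lower side, with 1.33% of all gene probesets. Vmn2r95 had 5.05, 4.82 and 4.81 in WT mice of 6 months, against 5.13, 5.52 and 5.23 in WT mice of 2 months, without overlap. Vmn2r58 had 5.34, 5.62 and 5.51 in WT mice of 6 months, against 5.21, 5.14 and 5.12 in WT mice of 2 months, also without overlap. By size alone the highest were Vmn2r85 (0.44), Vmn2r74 (0.39) and Vmn2r58, and the third lowest was Vmn2r36 (-0.36). The median over the family was 0.0080, and its sign turned with array weights (-0.017) and with the hybridization controls as a covariate (-0.038), while it ran from -0.040 to 0.045 over the fits without 1 array. The olfactory sensory neuron genes had mean levels from 8.42 to 8.66 in WT mice of 6 months and from 8.70 to 8.94 in WT mice of 2 months, and 5 markers of non-neuronal cells from 9.55 to 9.68 and from 9.82 to 10.15, neither with overlap. The 10 vomeronasal transduction genes had mean levels from 9.91 to 10.06 in WT mice of 6 months, against 10.11 to 10.198 in WT mice of 2 months, and the 4 measured markers of vomeronasal neurons from 9.98 to 10.23, against 10.296 to 10.61, again without overlap. These 4 markers (Gng8, Gnao1, Gnai2 and Omp) are all among the 10 transduction genes. Omp and Ano2 are also among the olfactory sensory neuron genes, so these lists are not independent. Their part in the result was not tested.

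After Benjamini-Hochberg adjustment in limma, 0 of 120 Vmn2r genes had a value under 0.05 in any of the 5 comparisons, against 1 gene probeset (0.0045%) for age in WT mice and 0 in each of the others. At an unadjusted p under 0.05 without a fold limit, limma gave 14 of 120 Vmn2r genes between genotypes at 6 months, against 8.61% of all gene probesets. The corresponding counts were 10 for the change of the genotype difference with age, against 5.71%, 11 for age in Tg2576 mice, against 5.62%, and 13 for age in WT mice, against 12%.

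The most variable member was also the brightest. Vmn2r29 had 8.84, 9.36 and 7.34 in Tg2576 mice of 6 months and 7.59, 8.42 and 9.48 in Tg2576 mice of 2 months, against 8.92, 9.12 and 8.87 in WT mice of 6 months and 9.78, 9.46 and 8.69 in WT mice of 2 months. The lowest pair of values were both from Tg2576 mice, 1 at each age, and the other 4 Tg2576 mice lay within the range of the WT mice or just below it. Its within-group SD was 0.76, against a median of 0.17 over the members. Only 8 of 120 genes varied by more than 1 log2 unit across all 12 arrays. Neither genotype comparison of Vmn2r29 passed the test, and without Tg2576 replicate 3 its difference at 6 months was 0.13.

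Vmn2r46, the next brightest, followed Vmn2r29 across the arrays. It had 7.71, 7.70 and 7.12 in Tg2576 mice of 6 months and 6.97, 7.67 and 7.81 in Tg2576 mice of 2 months, against 7.85, 8.01 and 7.90 in WT mice of 6 months and 8.18, 7.94 and 7.63 in WT mice of 2 months. The 2 lowest arrays were the same as for Vmn2r29. The correlation of these genes was 0.91 over the 12 arrays, the highest of all 7140 pairs, and 0.92 after the group means were removed. The pair shares the arrays, the normalization and the large group of paralogs on chromosome 7. The second probeset of Vmn2r46 correlated with the first at 0.94. Probe sequences were not used here, so how far a probeset also reads the transcripts of close paralogs was not tested. For Vmn2r47, the probeset used holds on every array the same values as that of Gm10302, a gene of the same chromosome, and these genes cannot be told apart.

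**Figure D5:**
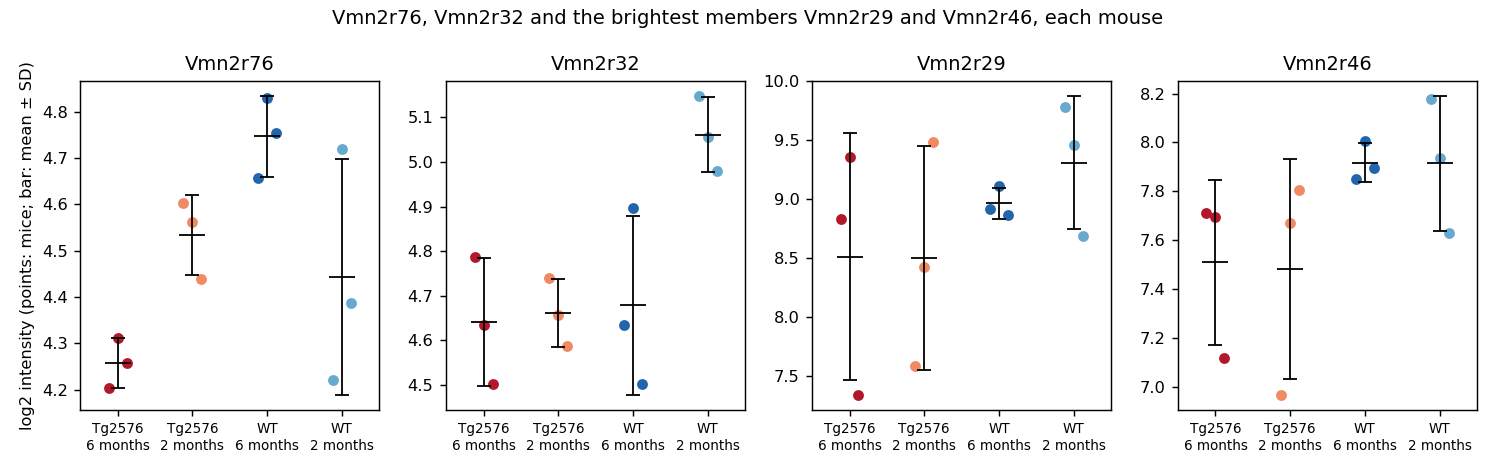
Log2 intensity of Vmn2r76, Vmn2r32, Vmn2r29 and Vmn2r46 in each mouse (points) with mean and SD (bars, n = 3) by group, each gene on its own axis. Vmn2r76 is lower in all 3 Tg2576 mice than in all 3 WT mice at 6 months, and Vmn2r29 and Vmn2r46 have their lowest values in the same Tg2576 mouse at each age.

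Vmn2r29 also stood apart in the sequence upstream of its start, which is shown for this reason. RefSeq gives it 2 starts, both on the minus strand of chromosome 7 in GRCm38.p6. The upstream window, chr7:7278290-7278539, belongs to a first exon that does not begin with a start codon, and the downstream window, chr7:7247329-7247578, ends at a start codon. Capitals mark CG.
Vmn2r29 upstream start: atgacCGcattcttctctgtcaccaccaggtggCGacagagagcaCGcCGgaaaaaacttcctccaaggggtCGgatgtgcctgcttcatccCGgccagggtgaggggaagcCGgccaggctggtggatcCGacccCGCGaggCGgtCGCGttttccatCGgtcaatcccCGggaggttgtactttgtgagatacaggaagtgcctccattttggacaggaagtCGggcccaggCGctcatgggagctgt
Vmn2r29 downstream start: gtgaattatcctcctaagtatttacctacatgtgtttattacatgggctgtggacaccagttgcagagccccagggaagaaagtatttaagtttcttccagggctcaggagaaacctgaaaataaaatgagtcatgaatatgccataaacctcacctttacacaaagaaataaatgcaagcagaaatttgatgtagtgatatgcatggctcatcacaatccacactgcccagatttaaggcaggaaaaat
The upstream window had 60.8% G and C and 17 CG, and the downstream window 39.2% and 0. Over the 114 Vmn2r windows the median was 38.6% and 1 CG, and the next highest share was 44.4%. Over 32841 windows of all genes the median was 52.4% and 6 CG. The upstream window of Vmn2r29 was thus the only Vmn2r window above the median of all genes. Other motifs searched on both strands were TATAAA, found in 21.9% of Vmn2r windows and 12.4% of all windows, and the palindrome CCCNNGGG, found in 20.2% of Vmn2r windows and 11.8% of all windows. The E-box pattern CANNTG was found in 97.4% of Vmn2r windows and 66.2% of all windows. The motif shares do not allow for the lower G and C content of the Vmn2r windows or for the likeness of paralogs. Of the 114 Vmn2r windows, 99 are followed by a start codon, and this was not counted among all windows. The G and C, CG and motif shares may thus compare unlike positions.

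Other genes of vomeronasal neurons and their targets were mostly not called. Of the 10 measured transduction genes, 0 were called in any comparison, and the same held for the H2-Mv genes, the formyl peptide receptors and the ligands. The share called over all gene probesets was 0.527% to 1.74% by comparison. A count of 0 in lists this short does not show that their genes held steady. Among 8 genes that guide vomeronasal axons, the ephrin receptor Epha6 was called higher in WT mice of 6 months than in those of 2 months (0.55, limma adjusted p = 0.243), against 1.45% of all gene probesets, and 0 were called between genotypes. Epha6 was lower in Tg2576 than in WT mice of 6 months (-0.47, standard error 0.14, limma adjusted p = 0.453) and missed only the fold limit. Of the 19 other class C receptors, 2 were called lower in Tg2576 mice of 2 months than in WT mice of 2 months, against 0.171% of all gene probesets, the metabotropic glutamate receptors Grm4 (-0.56) and Grm5 (-0.52), and 0 were called between genotypes at 6 months. The umami receptor subunit Tas1r1 was called for the change of the genotype difference with age (-0.54, against 0.518% of all gene probesets in the lower direction) and higher in WT mice of 6 months than in those of 2 months (0.40).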

How the data were processed

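OB RNA of 12 female mice was hybridized to Affymetrix Mouse Clariom S arrays. Per the labels, cDNA was made from 1 ng of total RNA. The deposited log2 values were made by the authors with RMA, which corrects background, normalizes arrays by quantiles and summarizes probes to 1 log2 value per probeset. The sources used here give no RMA version. Quantile normalization gives all arrays nearly the same distribution, so a shift common to all genes cannot be seen.

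From these values, limma 3.58.1 in R 4.3.3 was fitted to the 4 group means over 22206 gene probesets, leaving out 6923 control probesets. Genotypes were compared at 6 and at 2 months, ages were compared within each genotype, and the genotype difference was compared between the ages. A call needed an unadjusted p under 0.01, the limit in the study's methods, and a fold over 1.3 or under 0.7. These fold limits are unequal on the log2 scale, so a lower call needed a larger change than a higher one. The change of the genotype difference with age had no fold limit. Benjamini-Hochberg values were computed over all gene probesets. No p was adjusted over the Vmn2r genes alone. Symbols came from the platform annotation. The negative control limit was the 95th percentile of the means of 5222 probesets, and 23 background probesets were used as another limit after the data were seen. The members and gene lists were chosen with earlier results of these data known. The named genes were those called in any comparison, the 3 highest and 3 lowest in each comparison of 2 groups, family C, receptors with a known ligand, the 8 brightest and 3 dimmest, and those next to the negative control limit. Vmn2r7 and Vmn2r88 belong to these but were not analysed here. The extremes of the change with age, Vmn2r100, Vmn2r38 and Vmn2r40 were named after their values were seen.

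Alternatives were a fit to the groups compared only, a trended robust prior, array weights, median centring, centring on the negative controls, the replicate number as a block, cyclic loess, hybridization controls as a covariate, each array left out, WT 6 months replicates 2 and 3 left out together, all probesets of a gene, and other p and fold limits. The fit was tested on simulated data. Neighbours were taken from RefSeq genes of GRCm38.p6, to which 120 of 120 genes matched, and upstream sequences from RefSeq promoter windows of the same build. The files name no build for the array. Identity came from global alignments in Biopython 1.88.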

Additional observations from a re-analysis of the deposited data

Results flagged for a closer look

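In a direct test of the difference between the ages, the genotype difference of Vmn2r76 changed by -0.58 (6 months minus 2 months, log2, limma adjusted p = 0.842). Tg2576 minus WT was -0.49 at 6 months, lower in 3 of 3 Tg2576 mice than in any WT mouse, and 0.09 at 2 months, where the groups overlapped. The genotype difference of Vmn2r86 changed by 0.91 in the same test (limma adjusted p = 0.842). It was 0.61 at 6 months and -0.30 at 2 months, and the groups overlapped at both ages. Both passed the unadjusted limit of 0.01, as did 173 of 22206 gene probesets, and neither passed the adjustment.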

How the results depend on the processing

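The count of Vmn2r genes above the negative controls was 0 at the 95th percentile, 5 with their median and 37 with the mean of the GC-binned background probesets, a limit chosen after seeing the data. The call counts rested on few genes. In Tg2576 against WT mice at 6 months (1 call) the count was 0 in the fit to those groups only and with Benjamini-Hochberg adjustment, 2 with cyclic loess, with a fold limit of 1.3 either way and at p under 0.05, and 3 with array weights, hybridization controls as a covariate, no fold limit, and without WT 6 months replicates 2 and 3. For 6 against 2 months in Tg2576 mice (2 calls) it was 4 in the fit to those groups only, with array weights, without WT 6 months replicates 2 and 3 and at p under 0.05, and 0 with Benjamini-Hochberg adjustment. For the change of the genotype difference with age (2 calls) it was 1 with array weights and with centring on negative controls, 10 at p under 0.05 and 0 with Benjamini-Hochberg adjustment. At 2 months (0 calls) it was 1 with centring on negative controls, a fold limit of 1.3 either way and no fold limit. For 6 against 2 months in WT mice (0 calls) it was 1 with centring on negative controls, 2 with a fold limit of 1.3 either way and at p under 0.05, and 5 with no fold limit. Leaving out each array in turn gave 0 to 3 calls at 6 months, 0 to 0 at 2 months, 1 to 4 for the change with age, 2 to 4 for age in Tg2576 mice and 0 to 5 for age in WT mice, where the 5 came without WT 6 months replicate 1.

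The direction turned for Vmn2r29 between genotypes at 6 months without Tg2576 replicate 3, with values from -0.88 to 0.13 over the fits without 1 array, and for Vmn2r85 between ages in WT mice with hybridization controls as a covariate (-0.0087). The family medians, all near 0, also turned under some settings, as given with each comparison, and that of the change of the genotype difference with age (-0.023) was 0.0077 with cyclic loess and 0.0047 without WT 6 months replicate 2. The causes were not tested. A filter on probesets above the 95th percentile of the negative controls left 0 Vmn2r genes and gave no value. With the replicate number as a block the counts were 1 at 6 months, 0 at 2 months, 2 for the change with age, 2 for age in Tg2576 mice and 0 for age in WT mice. Mice of the same number in the compared groups did not deviate together, with correlations from -0.22 to 0.18, so the numbers were not taken as pairs. All members lie below the 95th percentile of the negative controls, as do most gene probesets, and 3 mice per group limit what can be seen.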
